A study of Mus musculus with 12 samples.

Results

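ABC transporter genes of subfamilies Abca to Abcg were followed in cultured mouse cardiac fibroblasts that had received vehicle or MCB-613-10-1. The members are the protein-coding genes with an Abca to Abcg symbol in the deposited tables of both times and at least 20 raw read counts summed over all 12 libraries. This rule gave 41 of the 29030 genes in the tables. Of 47 such symbols, the 6 left out were Abca16, Abcc6, Abcc8, Abcg3, Abcg5 and Abcg8, with 3 to 15 counts each. The members nearest the limit were Abca12 and Abca17 with 28 counts each. Abcc12, Abcb11, Abca12 and Abca17 reached the limit only through the treated libraries of 24 h, so their rise there is partly built into the rule. Of these only Abcc12 had enough counts to be tested, and the counts of members that rose at 24 h include it.

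Per the labels, all groups were primary fibroblasts from hearts of C57BL/6 mice, grown in DMEM with fetal bovine serum and antibiotics, with no other allele or agent named. The 4 groups of 3 libraries were ethanol vehicle for 4 h, 6 µM MCB-613-10-1 for 4 h, ethanol vehicle for 24 h and 6 µM MCB-613-10-1 for 24 h. MCB-613-10-1 is a derivative of MCB-613, a small molecule known as a stimulator of steroid receptor coactivators. No sex, age or number of mice is given in the labels, which also do not say whether the libraries of a group came from separate cultures or animals, so p-values measure the spread between these libraries, which may be technical.

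ABC proteins couple the binding and hydrolysis of ATP to the movement of a substrate across a membrane. The Abca and Abcg proteins mostly move lipids and sterols, and Abca1 and Abcg1 pass cholesterol to acceptors outside the cell. Members of Abcb, Abcc and Abcg2 export drugs and conjugates, other Abcb proteins lie in mitochondria or lysosomes, Abcd proteins bring fatty acids into peroxisomes, and Abce and Abcf proteins have no membrane domain and act on ribosomes and translation. In fibroblasts the family is best known for cholesterol efflux through Abca1 and for export of conjugates of glutathione through Abcc1.

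Total counts were 26869195 to 31596784 per library at 4 h and 25016754 to 34877090 at 24 h. All 8 fibroblast markers were present in every group, with a summed level of 9980 to 11786 CPM (read counts scaled to library size) in vehicle and 10068 to 12166 CPM in treated libraries at 4 h, and of 10876 to 15190 CPM in vehicle and 4129 to 4626 CPM in treated libraries at 24 h. Of the 8 fibroblast markers, 1 was called lower at 4 h, Tcf21, and 6 were called lower and 1 higher at 24 h. Of 7 cardiomyocyte markers, 6 had means under 1 CPM in all groups. Macrophage markers summed to 95.6 to 102 CPM in vehicle and 67.9 to 87.4 CPM in treated libraries at 4 h (1 of 6 tested lower), and to 312 to 362 CPM and 150 to 170 CPM at 24 h (5 of 7 tested lower and 2 higher). Pericyte and smooth muscle markers summed to 479 to 607 CPM in vehicle and 416 to 471 CPM in treated libraries at 4 h (none of 6 tested called), and to 374 to 448 CPM and 73.6 to 98.7 CPM at 24 h (4 of 6 lower). Endothelial markers summed to 35.8 to 40.0 CPM in vehicle and 38.8 to 39.8 CPM in treated libraries at 24 h, where 3 of 7 were higher and 4 lower. Epicardial markers summed to 19.1 to 21.7 CPM in vehicle and 18.8 to 22.6 CPM in treated libraries at 24 h. There 1 of 5 was higher and 2 were lower. Beside these counts, 7.16% of all genes tested passed an adjusted p of 0.05 in edgeR at 4 h. At 24 h 74.7% did, with 36.7% higher and 38% lower, so calls of most markers are ordinary there. The part of these shifts in the results on ABC genes was not tested.

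Levels were compared between genes per gene length, as deposited FPKM (fragments scaled to gene length and to library depth). In vehicle fibroblasts at 4 h the most abundant members were not transporters but the ribosome proteins Abcf2 at 60.5 ± 1.08 FPKM (SD, n = 3), Abce1 at 57.1 ± 7.29 FPKM and Abcf1 at 38.1 ± 3.96 FPKM. Abcf2 and Abce1 did not differ beyond their spread. Next came the conjugate exporter Abcc1 at 23.4 ± 1.99 FPKM, Abcf3 at 14.6 ± 0.52 FPKM, the conjugate and nucleotide exporter Abcc4 at 10.9 ± 0.679 FPKM and the peroxisomal Abcd3 at 10.5 ± 1.1 FPKM, of which the last pair did not differ beyond their spread. The 4 ribosome and translation genes held 59.8% ± 0.95 (SD, n = 3) of the summed FPKM of the family in vehicle at 4 h and 60.1% ± 1.58 in treated cells at 24 h. At least 1 FPKM on average was reached by 22 members in vehicle and 23 in treated cells at 4 h, and by 24 and 26 at 24 h.

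**Figure D1:**
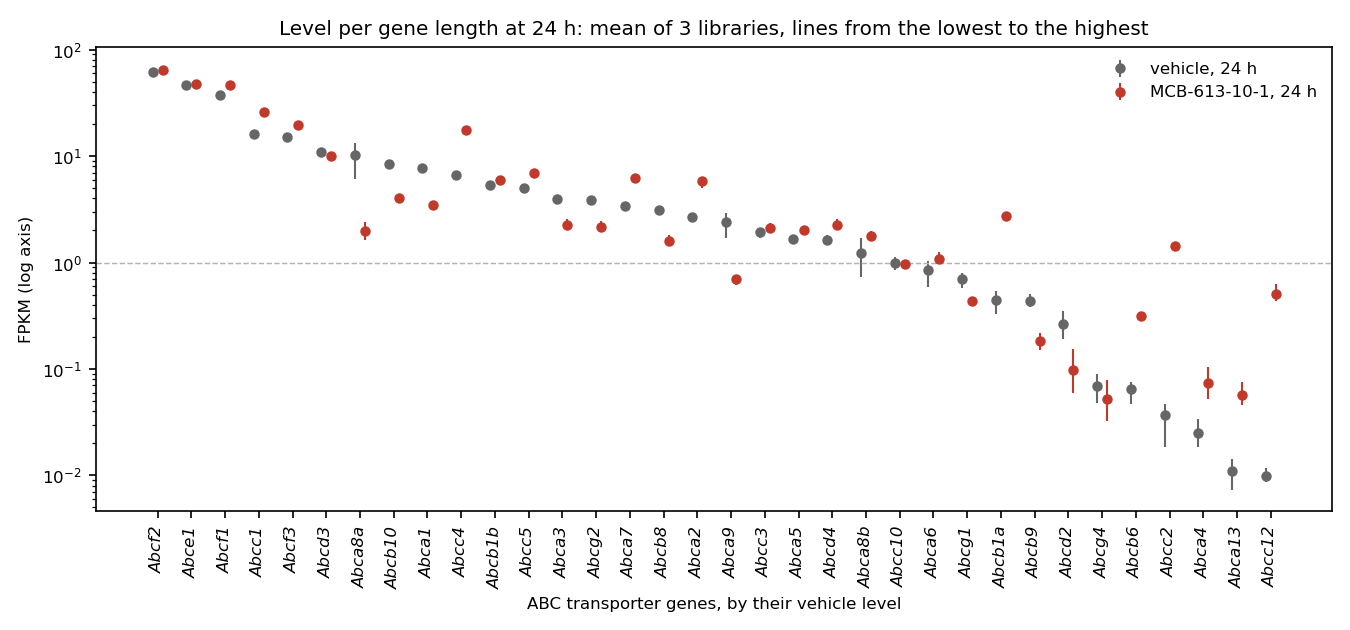
Level of ABC transporter genes at 24 h in FPKM (log axis) for vehicle (grey) and MCB-613-10-1 (red); points are means of 3 libraries, lines run from the lowest to the highest library, the dashed line is 1 FPKM, and genes listed at 0 in a library and a few others are not drawn. Abcf2 leads in both groups, followed by Abce1 and Abcf1, which overlap in treated cells, and Abcc2, Abcb1a and Abcc12 stand far higher in treated than in vehicle cells.

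Treatment moved few genes of the whole transcriptome at 4 h and most of them at 24 h, and the ABC genes are read against that background. Treated and vehicle libraries did not overlap in 29.7% of all genes tested at 4 h and 77.5% at 24 h. A lack of overlap is therefore ordinary at 24 h. At 4 h, 7 of 36 members tested (19.4%) passed an adjusted p of 0.05 in edgeR's quasi-likelihood test with Benjamini-Hochberg adjustment over all genes, beside 7.16% of all genes tested. A change of at least 1 log2 unit was reached by 2 members (5.56%), Abca1 and Abcc2, beside 1.3% of all genes. The 4 that rose were Abcc1, Abcc2, Abcc4 and Abcc5, and the 3 that fell were Abca1, Abcg1 and Abcb10; 3.45% of all genes rose and 3.71% fell. The median log2 fold change was 0.15 over the members and -0.01 over all genes. The count fell to 4 without the third vehicle library and to 3 without the second or without the third treated library. The calls of Abcb10 and Abcc2 were also lost without the first treated library. With each library left out, log2 fold changes kept their sign, at -0.45 to -0.36 for Abcb10 and 1.15 to 1.45 for Abcc2. They ran from 0.37 to 0.46 for Abcc4 and from -1.07 to -0.78 for Abcg1, so these 4 calls lie near the threshold.

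At 24 h, 28 of 37 members tested (75.7%) passed the same test, beside 74.7% of all genes, a share near the background. Of these, 17 rose and 11 fell, beside 36.7% of all genes higher and 38% lower; scaling to library totals, which lowers the median of all genes by 0.19 on the log2 scale, gave 14 higher and 14 lower. A change of at least 1 log2 unit was reached by 15 members (40.5%), beside 31.5% of all genes. Among the 15, Abcc12, Abcc2, Abcb6, Abca13 and Abca4 met the filter on low counts at 24 h only through their treated libraries. Their rises are therefore partly built into that filter, which was applied to all genes. The median log2 fold change was 0.18 over the members and -0.02 over all genes. All 7 genes called at 4 h were called in the same direction at 24 h, and of the other members tested at both times 12 were called higher and 8 lower at 24 h alone and 8 were called at neither time. The matching shares over all genes were not computed, and with 74.7% of all genes called at 24 h these counts are not read as a trait of the family. In bulk RNA, fewer cells of a type and less RNA per cell cannot be told apart.

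**Figure D2:**
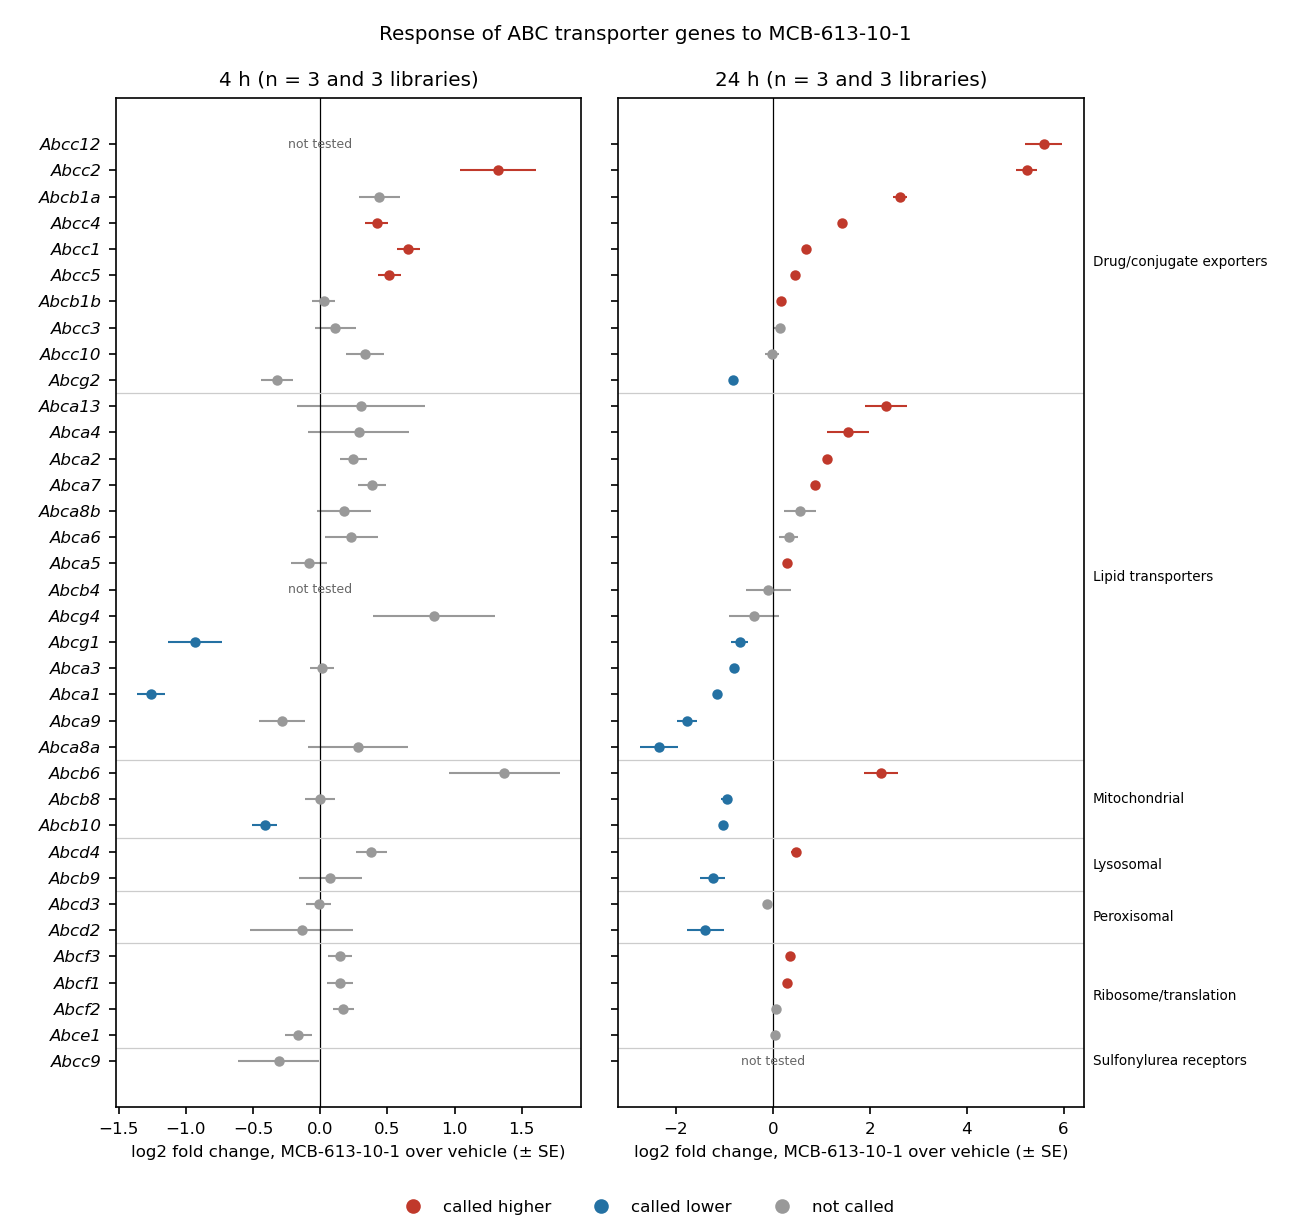
Response of ABC transporter genes, as log2 fold change of MCB-613-10-1 over vehicle with its SE at 4 h (left) and 24 h (right), grouped by role; red genes rose, blue genes fell and grey genes were not called at an adjusted p of 0.05; a few members are not drawn. The 4 exporters called at 4 h all lie above 0 and Abca1, Abcg1 and Abcb10 below it. At 24 h the log2 fold changes run from -2.35 for Abca8a to 5.59 for Abcc12, which is a member only through its treated libraries of 24 h.

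Among drug and conjugate exporters, Abcc1, Abcc2, Abcc4 and Abcc5 rose at 4 h and at 24 h, Abcb1a, Abcb1b and Abcc12 were called higher at 24 h, and Abcg2 fell at 24 h. At 4 h, 4 of 9 tested members of this class rose and none fell, beside 3.45% of all genes higher and 3.71% lower. At 24 h, 7 of 10 rose and 1 fell, beside 36.7% of all genes higher and 38% lower; the share called in either direction, 80%, is near the 74.7% of all genes. Their summed level went from 55.2 ± 3.57 to 75.4 ± 2.04 FPKM at 4 h and from 40.4 ± 0.914 to 66.2 ± 3.46 FPKM at 24 h (SD, n = 3). Vehicle and treated libraries did not overlap at either time, as was so for 29.7% of all single genes at 4 h and 77.5% at 24 h.

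Abcc1 (ENSMUSG00000023088, GRCm39 chromosome 16, 14179422 to 14293601) exports glutathione conjugates and leukotriene C4 and is the most abundant transporter with a membrane domain here. It stood at 389.9, 379.6 and 332 CPM in the vehicle libraries and at 559, 598 and 578 CPM in the treated libraries of 4 h. The 24 h levels were 252, 264 and 237 CPM in vehicle and 405, 439 and 361 CPM in treated libraries. Every treated library was above every vehicle library at both times. The rise was 1.58-fold at 4 h (log2 0.66, SE 0.09, adjusted p = 0.000888 in edgeR) and 1.60-fold at 24 h (log2 0.68, SE 0.07, adjusted p = 8.6e-07). The difference between the times was 0.03 on the log2 scale (adjusted p = 0.852).

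Abcc5 (ENSMUSG00000022822, chromosome 16, 20150053 to 20245144), an exporter of cyclic nucleotides, was at 56.7, 50.6 and 55.4 CPM in vehicle and 79.3, 76.8 and 76.4 CPM in treated libraries at 4 h. Its 24 h levels were 58.8, 52.6 and 55.0 CPM in vehicle and 76.8, 79.3 and 74.2 CPM in treated libraries. The groups did not overlap, and the rises were 1.43-fold at 4 h (edgeR adjusted p = 0.00375) and 1.38-fold at 24 h (adjusted p = 3.64e-07).

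Abcc4 (ENSMUSG00000032849, chromosome 14, 118720104 to 118943631), which exports cyclic nucleotides, prostaglandins and conjugates, rose at 4 h and further at 24 h. Its 4 h levels were 76.4, 74.2 and 67.8 CPM in vehicle and 94.2, 100.3 and 97.5 CPM in treated libraries. At 24 h vehicle libraries held 43.2, 42.7 and 44.5 CPM and treated libraries 117, 118 and 115 CPM. The groups were apart at both times, by 1.34-fold at 4 h (edgeR adjusted p = 0.0107) and 2.69-fold at 24 h (adjusted p = 3.43e-15). The 4 h call was lost without the third vehicle library (adjusted p = 0.0559) and without the second (0.0650) or the third treated library (0.0724). The 24 h response exceeded the 4 h response by 1.01 on the log2 scale (SE 0.09, adjusted p = 4.55e-08).

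Abcc2 (ENSMUSG00000025194, chromosome 19, 43770631 to 43829179), the exporter of conjugates at the bile canaliculus of the liver, was nearly silent in vehicle cells. Vehicle libraries held 0.742, 0.693 and 0.473 CPM and treated libraries 1.56, 1.51 and 1.75 CPM at 4 h. At 24 h the levels were 0.399, 0.162 and 0.418 CPM in vehicle and 13.9, 12.5 and 11.7 CPM in treated libraries. All treated libraries lay above all vehicle libraries, by 2.50-fold at 4 h (edgeR adjusted p = 0.0163) and 37.8-fold at 24 h (log2 5.24, SE 0.22, adjusted p = 5.37e-14). The 4 h call was lost in limma on FPKM (adjusted p = 0.0521), without the third vehicle library (0.0618) and without any of the treated libraries (0.0546 to 0.0803). At 24 h treated cells held 1.44 ± 0.123 FPKM of Abcc2. Its vehicle libraries of 24 h, with 15, 5 and 14 raw counts, would not have met the filter on low counts alone.

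The P-glycoprotein genes Abcb1a (ENSMUSG00000040584, chromosome 5, 8710077 to 8798575) and Abcb1b (ENSMUSG00000028970, chromosome 5, 8848147 to 8916315), exporters of many lipophilic drugs, are neighbours on the same strand, 49571 bases apart. Abcb1a was at 6.4, 6.72 and 6.41 CPM in vehicle and 10.2, 9.19 and 7.14 CPM in treated libraries at 4 h, a difference that did not pass (edgeR adjusted p = 0.111). At 24 h it was at 3.04, 2.59 and 1.88 CPM in vehicle and 15.5, 16 and 15 CPM in treated libraries. The 24 h groups were far apart, with a 6.16-fold rise (log2 2.62, SE 0.15, adjusted p = 5.21e-12). Abcb1b, the more abundant of the pair, was at 83.4, 77.9 and 72.9 CPM in vehicle and 82.4, 80.2 and 75.8 CPM in treated libraries at 4 h. At 24 h Abcb1b was at 42.8, 45.4 and 43.9 CPM in vehicle and 52.5, 47.6 and 49.2 CPM in treated libraries. The 24 h groups of Abcb1b did not overlap and it rose 1.13-fold (adjusted p = 0.0139), but scaled to library totals its log2 fold change was -0.02 (adjusted p = 0.812), and the call was lost without the first vehicle library (0.0642) or the first treated library (0.0727). In the transcripts of GENCODE M21, 15.5% of the 50-base words of Abcb1a also occur in Abcb1b and 18% of those of Abcb1b in Abcb1a. Reads from the shared stretches may map to both genes, so the values of both are uncertain to a degree that was not measured.

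Abcg2 (ENSMUSG00000029802, chromosome 6, 58561508 to 58672661), an exporter of drugs and urate, moved the other way. It was at 36.4, 27.3 and 29.4 CPM in vehicle and 25.8, 24.0 and 24.6 CPM in treated libraries at 4 h (edgeR adjusted p = 0.127). By 24 h it was at 33.1, 33.6 and 31.0 CPM in vehicle and 17.1, 20.8 and 17.1 CPM in treated libraries. Treated libraries were all below vehicle libraries, and it fell by 0.82 on the log2 scale at 24 h (SE 0.08, adjusted p = 3.49e-08), that is 1.77-fold lower.

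Abcc12 (ENSMUSG00000036872, chromosome 8, 87208889 to 87307315), whose substrates are not well known, had 3, 2 and 2 raw counts in the vehicle libraries and 80, 91 and 99 in the treated libraries at 24 h. The summed counts differed 44.0-fold after scaling, with a 95% interval of 21.0 to 110 that covers counting error only. The fitted log2 fold change was 5.59 (SE 0.39, edgeR adjusted p = 1.27e-10). The treated libraries of 24 h held 270 of its 286 counts, and without them Abcc12 would not be a member. Its rise is therefore not independent of the rule for members. At 4 h it had 2 counts in vehicle and 7 in treated libraries and was not tested. Abcc3, a bile acid and glucuronide exporter, and Abcc10 were called at neither time, with log2 fold changes of 0.11 and 0.33 at 4 h and 0.15 and -0.02 at 24 h.

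**Figure D3:**
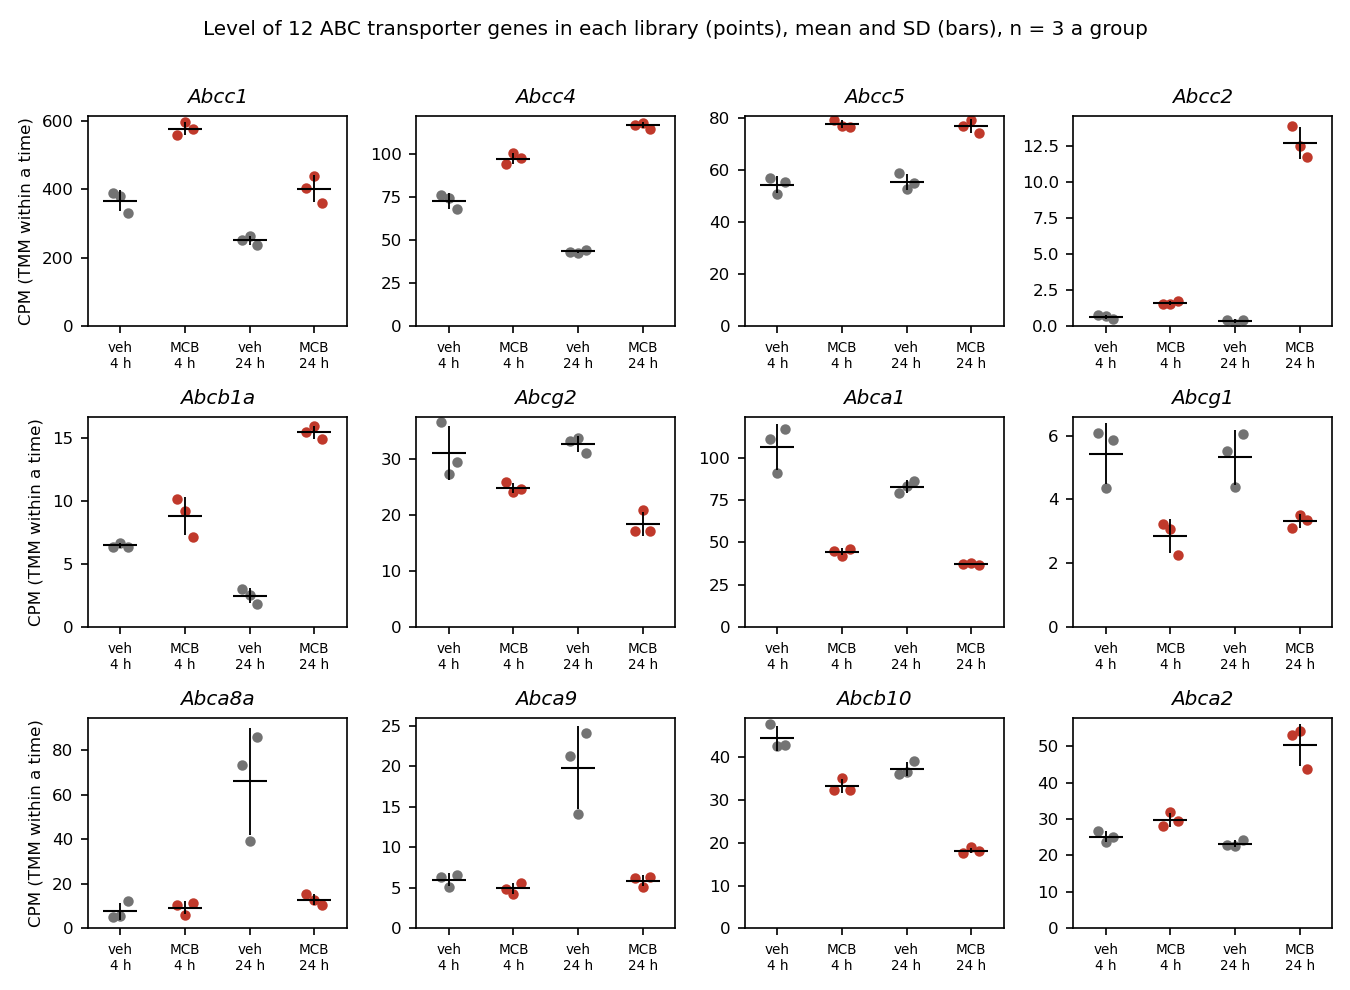
Level of 12 ABC transporter genes in every library, in CPM scaled within a time (each panel has its own axis from 0); grey points are vehicle (veh) and red points MCB-613-10-1 (MCB), the horizontal line is the mean and the vertical line the SD of 3 libraries. Abcc1 and Abcc5 rose by similar amounts at both times, Abcc2 and Abcb1a stand apart at 24 h, and Abca1 and Abcg1 lie lower in all treated libraries at both times.

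RefSeq promoter windows (build GRCm38.p6, 250 bases before to 50 after a start) were at hand for 31 members, in 37 windows. The letters TGACNNNGC, the core of the antioxidant response element, were searched on both strands and occurred in 7 windows (18.9%) of 5 members, Abca8b, Abcb1a, Abcc2, Abcc4 and Abcc10, beside 12.4% of 32851 windows of all genes. The stretches below show those before the start, since Abcc2 and Abcc4 were among those that rose at both times and Abcc10 was called at neither; each is read 5′ to 3′ on the gene's strand, and capitals mark the match, which in the first Abcc4 window is on the opposite strand.
Abcc2, chr19:43782150-43782248, plus strand: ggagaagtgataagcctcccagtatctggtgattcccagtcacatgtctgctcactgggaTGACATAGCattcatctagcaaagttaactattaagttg
Abcc4, chr14:118706220-118706304, minus strand: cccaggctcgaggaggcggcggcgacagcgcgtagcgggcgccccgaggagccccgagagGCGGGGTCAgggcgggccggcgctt
Abcc4, second start, chr14:118676932-118677014, minus strand: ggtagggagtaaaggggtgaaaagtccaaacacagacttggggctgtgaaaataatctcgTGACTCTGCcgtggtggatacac
Abcc10, chr17:46328188-46328273, minus strand: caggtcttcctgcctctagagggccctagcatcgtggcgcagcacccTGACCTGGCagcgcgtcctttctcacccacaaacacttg
The match begins 98 bases before the start in Abcc2, 25 and 23 bases before the 2 starts of Abcc4, and 203 bases before 1 start of Abcc10. Matches after the start, which are not shown, begin at base 12 in Abca8b and in a second window of Abcc10 and at base 27 in Abcb1a. The heat shock element core GAANNTTC occurred in 1 member window, that of Abcc5, beside 7.86% of all windows, and TGATGNAA, a composite of C/EBP and ATF sites, in 1, that of Abca13, beside 3.97%. The match in Abcc5 begins 164 bases before the start and is shown because Abcc5 rose at both times.
Abcc5, chr16:20426521-20426618, minus strand: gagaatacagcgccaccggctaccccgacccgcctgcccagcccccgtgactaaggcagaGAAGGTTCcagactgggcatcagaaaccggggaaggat
These matches are descriptions of letters and not of binding sites.

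The list of enzymes that make substrates for the Abcc exporters was chosen for glutathione synthesis and for glutathione, glucuronide and sulfate conjugation. At 4 h, 5 of 11 tested genes were higher and none lower, beside 3.45% of all genes higher and 3.71% lower. At 24 h, 12 of 12 tested genes were higher, beside 36.7% of all genes. The largest rises at 24 h were those of the glutathione transferases Gsta2, Gsta1 and Gsta3, by 4.44, 3.55 and 3.08 on the log2 scale. The heme oxygenase gene Hmox1, a reference for the treatment, rose by 2.41 at 4 h (edgeR adjusted p = 1.13e-07) and 4.35 at 24 h (adjusted p = 5.9e-22) on the same scale.

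Lipid transporters moved in both directions. At 4 h, 2 of 13 tested fell, Abca1 and Abcg1, and none rose, beside 3.71% of all genes lower and 3.45% higher. At 24 h, 5 of 14 rose and 5 fell, a share near the 74.7% of all genes called. Their summed level was 27.9 ± 2.51 FPKM in vehicle and 23.8 ± 0.458 FPKM in treated cells at 4 h, and 34.9 ± 5.54 and 26.1 ± 1.74 FPKM at 24 h (SD, n = 3).

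Abca1 (ENSMUSG00000015243, chromosome 4, 53030787 to 53159895) loads cholesterol and phospholipid onto apolipoprotein A-I, and it was the member with the largest called fall at 4 h. It was at 111, 90.8 and 117 CPM in vehicle and 44.8, 42.2 and 46.4 CPM in treated libraries at 4 h. The 24 h levels were 79.0, 83.6 and 86.2 CPM in vehicle and 37.1, 38.0 and 36.8 CPM in treated libraries. Treated libraries lay well below vehicle libraries at both times, 2.39-fold lower at 4 h (log2 -1.26, SE 0.11, edgeR adjusted p = 3.08e-05) and 2.22-fold lower at 24 h (log2 -1.15, SE 0.06, adjusted p = 5.44e-13). The difference between the times was 0.11 (adjusted p = 0.456).

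Abcg1 (ENSMUSG00000024030, chromosome 17, 31276649 to 31336962), which passes cholesterol to high-density lipoprotein, was at 6.09, 4.34 and 5.86 CPM in vehicle and 3.22, 3.09 and 2.25 CPM in treated libraries at 4 h. At 24 h it was at 5.51, 4.37 and 6.06 CPM in vehicle and 3.09, 3.52 and 3.35 CPM in treated libraries. The groups did not overlap, and it was 1.91-fold lower at 4 h (edgeR adjusted p = 0.0163) and 1.60-fold lower at 24 h (adjusted p = 0.0016). The 4 h call was lost in limma on FPKM (adjusted p = 0.0531), without the third vehicle library (0.0539) and without the second (0.0588) or the third treated library (0.0878). Of 15 other genes of sterol handling and the LXR receptors, which drive Abca1 and Abcg1, 2 rose and 1 fell at 4 h. At that time 7.16% of all genes were called. At 24 h, 8 rose and 4 fell, where 74.7% of all genes were called. The LXR genes themselves parted at 24 h, as Nr1h2 rose by 1.25 (edgeR adjusted p = 4.9e-14) and Nr1h3 fell by 1.04 (adjusted p = 9.48e-05) on the log2 scale. The lysosomal cholesterol exporter gene Npc1 rose by 1.28 (adjusted p = 2.35e-11).

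The 5 neighbours on the minus strand of chromosome 11, in the order Abca8b, Abca8a, Abca9, Abca6 and Abca5, lie 4770 to 29788 bases apart and did not move as one. Abca8a (ENSMUSG00000041828, 109916460 to 109986804), linked to cholesterol and lipid export, was at 5.29, 5.69 and 12.2 CPM in vehicle and 10.4, 6.14 and 11.4 CPM in treated libraries at 4 h, where the groups overlapped. In the 24 h libraries it was at 73.2, 39.2 and 85.8 CPM in vehicle and 15.6, 12.6 and 10.5 CPM in treated libraries. It was 5.11-fold lower with treatment at 24 h (log2 -2.35, SE 0.39, edgeR adjusted p = 0.00526), the largest called fall of any member, and all treated libraries lay below all vehicle libraries. Its vehicle level was 1.18 ± 0.589 FPKM at 4 h and 10.2 ± 3.70 FPKM at 24 h, and this difference between vehicle groups was not tested.

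Abca9 (ENSMUSG00000041797, chromosome 11, 109991575 to 110059022) had the same shape, with 21.3, 14.2 and 24.1 CPM in vehicle and 6.27, 5.11 and 6.31 CPM in treated libraries at 24 h. It was 3.39-fold lower at 24 h (edgeR adjusted p = 7.64e-05) and not called at 4 h (adjusted p = 0.340). In both genes the second vehicle library was the lowest of the vehicle libraries of 24 h. Abca5, a lysosomal lipid transporter at the other end of the row, rose 1.23-fold at 24 h (adjusted p = 0.00237), a call that was lost when scaled to library totals (adjusted p = 0.266). Abca6 and Abca8b were not called at 24 h, with log2 fold changes of 0.33 and 0.56; without the third vehicle library they passed with 0.48 (adjusted p = 0.0460) and 0.87 (adjusted p = 0.00237). The transcripts of Abca8a share 1.89% of their 50-base words with Abca8b and 0 with Abca9.

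The other lipid transporters that rose at 24 h were Abca2, Abca7, Abca4 and Abca13. Abca2 (ENSMUSG00000026944, chromosome 2, 25318715 to 25338552), an endosomal and lysosomal lipid transporter, was at 22.9, 22.5 and 24.2 CPM in vehicle and 53.1, 54.1 and 43.7 CPM in treated libraries at 24 h, a 2.17-fold rise with no overlap (edgeR adjusted p = 1.92e-10). Abca7 (ENSMUSG00000035722, chromosome 10, 79832328 to 79851406), a phospholipid transporter linked to phagocytosis, was at 25.1, 21.2 and 24.6 CPM in vehicle and 45.0, 44.1 and 40.7 CPM in treated libraries at 24 h (1.83-fold, adjusted p = 2.94e-09). At 4 h Abca7 was just outside the threshold (log2 0.39, adjusted p = 0.0507), and it passed in 6 of the alternatives, among them DESeq2 (adjusted p = 0.0224).

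Abca4, the retinoid transporter of photoreceptors, and Abca13 were low, with means of 0.312 and 0.223 CPM in vehicle and 0.912 and 1.16 CPM in treated cells at 24 h. Their 24 h rises of 1.55 and 2.35 on the log2 scale (edgeR adjusted p = 0.00351 and 7.25e-05) were both lost in limma on FPKM, and that of Abca4 without the second treated library (adjusted p = 0.0519). Both genes met the filter on low counts at 24 h only through their treated libraries. Abca3 (ENSMUSG00000024130, chromosome 17, 24570924 to 24629175), known from the lamellar bodies of the lung, fell at 24 h from 40.7, 37.7 and 36.1 CPM to 24.7, 20.5 and 20.4 CPM (1.75-fold lower, adjusted p = 3.16e-08). At 4 h its log2 fold change was 0.01. Abcg4 and Abcb4, the phosphatidylcholine transporter of bile, were not called at 24 h (adjusted p = 0.510 and 0.862), and Abcg4 was called at 4 h without the first vehicle library only (log2 1.78, adjusted p = 0.0122; 0.85 and 0.291 with all libraries).

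Of the mitochondrial members described here, Abcb10 and Abcb8 fell and Abcb6 rose at 24 h. Abcb10 (ENSMUSG00000031974, chromosome 8, 124679198 to 124709861), an inner-membrane protein tied to heme synthesis in red-cell precursors, was at 47.7, 42.6 and 42.9 CPM in vehicle and 32.4, 35.2 and 32.4 CPM in treated libraries at 4 h. At 24 h vehicle libraries held 36.0, 36.5 and 39.1 CPM and treated libraries 17.6, 18.9 and 18 CPM. Treated libraries were lower at both times, 1.33-fold at 4 h (edgeR adjusted p = 0.0197) and 2.04-fold at 24 h (adjusted p = 1.31e-10), and the 4 h call was lost without any of the treated libraries (adjusted p = 0.0564 to 0.125).

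Abcb8 (ENSMUSG00000028973, chromosome 5, 24598661 to 24615052), whose loss in mice is known to raise iron in heart mitochondria, was at 15, 15.5 and 15.4 CPM in vehicle and 7.20, 8.83 and 7.61 CPM in treated libraries at 24 h. It was 1.93-fold lower at 24 h (edgeR adjusted p = 1.51e-07), with a log2 fold change of -0.00 at 4 h.

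Abcb6 (ENSMUSG00000026198, chromosome 1, 75148361 to 75157036), a porphyrin transporter, was low. It was at 0.402, 0.511 and 0.146 CPM in vehicle and 1.05, 0.791 and 0.929 CPM in treated libraries at 4 h (edgeR adjusted p = 0.0700). By 24 h it was at 0.399, 0.259 and 0.418 CPM in vehicle and 1.83, 1.69 and 1.65 CPM in treated libraries, a 4.73-fold rise with no overlap (adjusted p = 9.97e-06). Abcb6 met the filter on low counts at 24 h only through its treated libraries. Of its span, 99.8% lies within the annotated long noncoding RNA Gm29253 on the same strand, which is listed at 0 in all libraries, so the level of Abcb6 is uncertain. Of 16 partner genes of iron-sulfur and heme synthesis, none was called at 4 h in edgeR (3 at an unadjusted p under 0.05, and 0 in DESeq2). At that time 7.16% of all genes were called. At 24 h, 5 rose and 7 fell, a share near the 74.7% of all genes called. The mitochondrial glycine carrier gene Slc25a38 and the iron carrier gene Slc25a37 rose by 1.36 and 1.19, and the heme synthesis gene Alad fell by 0.91, on the log2 scale at 24 h.

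Of the peroxisomal members described here, Abcd2 fell at 24 h and Abcd3 was not called. Abcd2, which imports very long chain fatty acids into peroxisomes, was low and fell from a mean of 1.61 to 0.596 CPM at 24 h (edgeR adjusted p = 0.00263).

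Abcd3 (ENSMUSG00000028127, chromosome 3, 121552423 to 121608951), which carries branched-chain acids and bile acid precursors, was at 80.7, 66.4 and 69.3 CPM in vehicle and 73.0, 71.7 and 69.8 CPM in treated libraries at 4 h. In the 24 h libraries it was at 78.6, 70.8 and 74.2 CPM in vehicle and 65.4, 73.0 and 68.3 CPM in treated libraries. Its groups overlapped at both times (log2 -0.01 and -0.11, edgeR adjusted p = 0.952 and 0.0827), and it passed at 24 h in 4 alternatives, with library totals (log2 -0.31), with no filter on low counts and without the second library of either group. Of 12 peroxisome partner genes, 1 was called at 4 h, the catalase gene Cat (log2 0.51, edgeR adjusted p = 0.00344), beside 7.16% of all genes. At 24 h, 8 rose and 2 fell, beside 74.7% of all genes called. The import receptor gene Pex5 rose by 1.24 and the thiolase gene Acaa1a fell by 1.16.

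The lysosomal members parted at 24 h. Abcd4, needed for the release of cobalamin from lysosomes, rose 1.40-fold, from 13.1, 12.3 and 15 CPM to 21.2, 18.6 and 16.8 CPM (edgeR adjusted p = 0.000361). Abcb9, a lysosomal peptide transporter, fell from 2.21, 2.92 and 2.48 CPM to 1.26, 1.07 and 0.87 CPM (2.35-fold lower, adjusted p = 0.00025), and 43.1% of its span is overlapped by Gm34086 on the opposite strand, which had next to no counts. The peptide transporters of antigen presentation, which belong to the Abcb subfamily by structure but carry other symbols, were lower too at 24 h in edgeR, Tap1 by a log2 fold change of -1.91 (adjusted p = 4.77e-13) and Tap2 by one of -0.21 (adjusted p = 0.0205) with libraries that overlapped between the groups. Of the 3 genes tested at 24 h in the list of peptide transport and loading, edgeR called 3 and DESeq2 2, beside 74.7% of all genes called in edgeR.

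The ribosome and translation members, the most abundant of the family, moved little. None of the 4 was called at 4 h in edgeR (1 at an unadjusted p under 0.05, and 0 in DESeq2), beside 7.16% of all genes. At 24 h, 2 rose, by 1.23-fold and 1.29-fold, and none fell, beside 36.7% of all genes higher and 38% lower. Abcf1 (ENSMUSG00000038762, chromosome 17, 36267711 to 36280653), which binds initiation factor eIF2, was at 175, 176 and 161 CPM in vehicle and 209.7, 209.9 and 212 CPM in treated libraries at 24 h (1.23-fold, adjusted p = 8e-06). Abcf3 (ENSMUSG00000003234, chromosome 16, 20367327 to 20380129), the relative of a yeast protein that works with the kinase GCN2, was at 55.2, 56.2 and 56.1 CPM in vehicle and 69.3, 72.3 and 74.2 CPM in treated libraries (1.29-fold, adjusted p = 4.08e-06). Treated libraries of both genes lay above all vehicle libraries at 24 h, and at 4 h their groups overlapped.

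Abce1 (ENSMUSG00000058355, chromosome 8, 80410091 to 80438369), which splits ribosomes after termination, was at 409.6, 334 and 328 CPM in vehicle and 348, 305 and 303 CPM in treated libraries at 4 h. At 24 h it was at 281, 299 and 278 CPM in vehicle and 284, 306 and 297 CPM in treated libraries. Abcf2 (ENSMUSG00000028953, chromosome 5, 24770343 to 24782465) was at 165, 161 and 159 CPM in vehicle and 173, 186 and 189 CPM in treated libraries at 4 h, and at 161, 165 and 159 CPM in vehicle and 162, 172 and 179 CPM in treated libraries at 24 h. Neither was called (log2 0.05 and 0.08 at 24 h, edgeR adjusted p = 0.342 and 0.144), and scaled to library totals both had the opposite sign at 24 h (log2 -0.14 and -0.12, adjusted p = 0.0106 and 0.0312). Of 13 partner genes of ribosome recycling and GCN2, none was called at 4 h in edgeR (1 at an unadjusted p under 0.05, and 0 in DESeq2). At that time 7.16% of all genes were called. At 24 h, 8 rose and 1 fell, beside 74.7% of all genes called. The ribosome rescue factor gene Pelo rose by 1.08 and the eIF2 subunit gene Eif2s2 by 1.01 on the log2 scale.

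Abcc9 (ENSMUSG00000030249, chromosome 6, 142533588 to 142648041) encodes the sulfonylurea receptor that forms cardiac and vascular KATP channels with the pore proteins Kcnj11 and Kcnj8. It was at 1.33, 0.876 and 0.946 CPM in vehicle and 0.724, 0.828 and 1.00 CPM in treated libraries at 4 h, where the groups overlapped (edgeR adjusted p = 0.577). Its 24 h libraries had 9, 1 and 18 raw counts in vehicle and 5, 6 and 4 in treated libraries, too few to be tested, with a scaled ratio of 0.611 (95% counting interval 0.303 to 1.18). The pore genes Kcnj8 and Kcnj11 were too low to be tested.

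Members with too few counts for the test at 24 h included Abcb11, the bile salt exporter of the liver, with 1 count in all vehicle libraries together and 5, 21 and 28 counts in the treated libraries. The scaled ratio was 61.6 (95% counting interval 10.6 to 2476). Abca12, the lipid transporter of the skin barrier, had 1 count in vehicle and 21 in treated libraries (ratio 23.9, interval 3.85 to 990), and Abca17 had 4 and 15 (ratio 4.27, interval 1.36 to 17.7). The authors' deposited table calls Abcb11 and Abca12 higher at 24 h.

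Whether the response changed with time was tested for each gene as the treatment effect at 24 h minus that at 4 h over all 12 libraries. Of 38 members tested, 16 (42.1%) passed, beside 53.8% of all genes; for 8 the 24 h response was higher and for 8 lower, and library totals gave 7 and 11. The difference reached at least 1 log2 unit in 8 members (21.1%), beside 23.5% of all genes. The exporters Abcc2 (log2 difference 3.93, SE 0.37, edgeR adjusted p = 7.67e-08), Abcb1a (2.19, SE 0.22, adjusted p = 1.83e-07) and Abcc4 (1.01) were among those higher at 24 h. Abca8a (-2.63, SE 0.59, adjusted p = 0.00496), Abca9 (-1.47, SE 0.26, adjusted p = 9.65e-05) and Abcb8 (-0.95, adjusted p = 2.98e-05) were among those lower.

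Abcc1, Abcc5, Abca1 and Abcg1 were called at both times with differences between -0.04 and 0.26 that did not pass. Abcc12, with 9 counts at 4 h, did not pass in edgeR (3.88, SE 1.79, adjusted p = 0.0760; 1.24 to 5.00 with each library left out). It passed in DESeq2 (3.80, adjusted p = 0.0119), in limma on FPKM (adjusted p = 6.44e-06), and in edgeR without the second or the third vehicle library or the first treated library of 4 h (0.0491, 0.0485 and 0.0306). All of these fits use the treated libraries of 24 h that made Abcc12 a member, so none is independent of the rule for members. Over the 35 members tested at both times, 27 had the same sign, and the log2 fold changes had a Pearson r of 0.65 and a Spearman rho of 0.68 across genes, which are not independent replicates; the times share no library. The same values were not computed over all genes, so they are not read as a trait of the family.

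**Figure D4:**
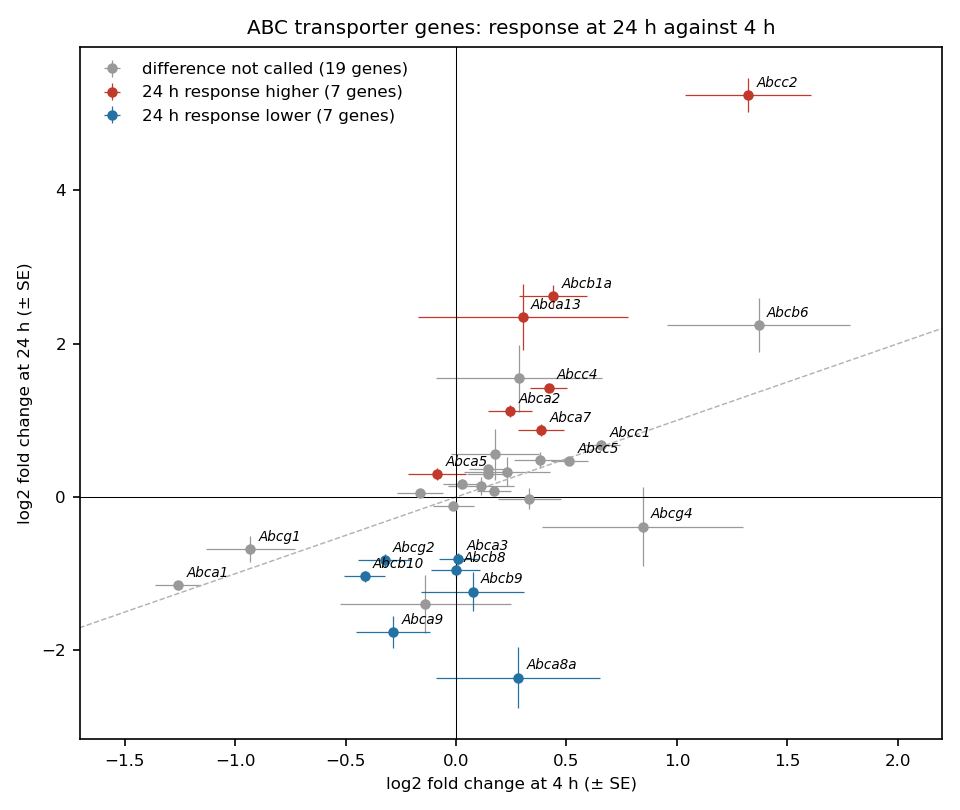
Log2 fold change (MCB-613-10-1 over vehicle, with SE) of 33 ABC transporter genes at 4 h (horizontal axis) and 24 h (vertical axis; the axes have different ranges), with the line of equal responses dashed; red and blue genes had a 24 h response called higher or lower than that at 4 h. Abcc1, Abcc5 and Abca1 lie near the line, Abcc2 and Abcb1a far above it and Abca8a far below it.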

How the data were processed

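RNA of 12 libraries was sequenced by the authors. Per the submitters' processing notes, HISAT2 2.0.5 and featureCounts 1.5.0-p3 were used with GRCm39; whether reads were counted by strand is not given in the sources used here. The deposited tables, 1 per time, hold raw counts, FPKM, the authors' normalized group means (a signal per gene), and the authors' log2 fold changes and p-values. The 2 times were normalized separately by the authors, and the 24 h group means carry a prefix that the labels do not explain.

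The deposited counts were filtered (filterByExpr), scaled by TMM and tested in edgeR 4.0.16 (R 4.3.3) by quasi-likelihood, each time on its 6 libraries and the difference between the times on all 12; Benjamini-Hochberg adjustment ran over 15336 genes at 4 h, 15575 at 24 h and 16341 for the difference. An adjusted p under 0.05 was a call. CPM are scaled within a time. Alternatives were size factors (RLE), library totals, DESeq2 1.42.0, no filter, limma 3.58.1 on log2(FPKM + 0.5), a replicate block, each library left out and all 12 libraries in the fit. In simulated counts for each comparison, 100 genes were changed by 1 log2 unit and 100 by 2, with 1 spread setting for all genes. For 4 h, 92% of genes changed by 1 unit were called, and 4.98% of the calls were false. For 24 h, 85% were, and 9.41% of the calls were false. Far more genes, 74.7%, were called in the real data of 24 h, so these shares do not carry over to them.

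Members and lists were chosen with earlier results of these data known. Results of a few genes are withheld and not reported here, though counts over the members include them. Values per library are given for the 6 largest called rises and falls at each time with at least 1 FPKM and for a fixed list of members, and further members were shown after their values were seen. From each other gene list up to 3 called genes with the largest change at 24 h are named. Counting intervals cover counting error only.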

Additional observations from a re-analysis of the deposited data

Results flagged for a closer look

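The response of 14 members named here differed between 24 h and 4 h in the interaction test over all 12 libraries (edgeR, adjusted p under 0.05), which is what brought them here. The 24 h response was higher, on the log2 scale, by 3.93 for Abcc2, 2.19 for Abcb1a, 2.05 for Abca13, 1.01 for Abcc4, 0.88 for Abca2, 0.49 for Abca7 and 0.39 for Abca5. It was lower for Abca8a (-2.63), Abca9 (-1.47), Abcb9 (-1.31), Abcb8 (-0.95), Abca3 (-0.81), Abcb10 (-0.61) and Abcg2 (-0.50). The difference of Abca13 was 1.19 (adjusted p = 0.126) without the first vehicle library of 4 h. That of Abca5 passed with all libraries (adjusted p = 0.0480) and was lost without any of 10 of them, with the replicate block (0.0544), with library totals (0.218) and in limma on FPKM (0.161).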

How the results depend on the processing

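The counts of members called were 7 at 4 h, 28 at 24 h and 16 for the difference between the times, and no other scaling, tool, filter or unit moved them by over 1.5 times: they ran from 5 to 10, from 26 to 31 and from 17 to 18. With each library left out, the counts ran from 3 to 9, from 28 to 31 and from 15 to 19. Scaling to library totals moved the median of all genes at 24 h by -0.19 on the log2 scale and turned the 24 h sign of Abcb1b (-0.017), Abce1 (-0.14) and Abcf2 (-0.12). Same-numbered libraries deviated from their group means with correlations of 0.088, 0.083 and 0.109 at 4 h and of 0.013, 0.02 and -0.043 at 24 h, so the replicate numbers were not taken to pair the samples; at 4 h each library correlated best with its own number, a hint from the data only. With the replicate block the counts were 8, 28 and 17. At the depth of these libraries, genes with about 1 CPM or less carry few counts. In simulated counts for the difference between the times, 57% of genes changed by 1 log2 unit were recovered and 95% of those changed by 2 units. There 2.56% of the calls were false. The simulation changed far fewer genes than the 53.8% called in the real data, so these shares do not carry over to them.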
